A study of Mus musculus with 12 samples.

Results

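Uhmk1, the gene of the kinase KIS, and the genes of 5 proteins reported as its partners were followed in newborn mouse brains with and without KIS. The partner genes are Sf1, Rbm39, Rbm17, Cdkn1b and Kif3a. The members were all main probesets that the deposited table lists under these 6 symbols, which gave 89 of the 221417 main probesets with a gene symbol, and 6 of 17550 symbols. Uhmk1 had 9 probesets, Sf1 24, Rbm39 20, Rbm17 12, Cdkn1b 4 and Kif3a 20. In KIS-ko brains the mean signal of 8 of the 9 Uhmk1 probesets was below the 95th percentile of the intron controls, while the probeset at its 5′ end overlapped between the genotypes, at 92.7% of the wildtype mean. No partner gene passed the test for a difference between the genotypes.

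KIS is a serine/threonine kinase that also carries a U2AF homology motif, a fold through which splicing factors hold each other. SF1 binds the branch point of the intron in the first steps of splicing and is phosphorylated by KIS. RBM39 and RBM17 are splicing factors with a motif of the same kind, p27 (the product of Cdkn1b) is an inhibitor of cyclin-dependent kinases that KIS can phosphorylate, and KIF3A is a motor subunit of kinesin-2, which carries cargo along microtubules. The comparison asks whether the transcripts of these partners, or the use of their exons, moved when the kinase was absent.

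Whole brains of 12 newborn females were measured, 1 Affymetrix Mouse Exon 1.0 ST array per brain. Of these, 6 were KIS +/+ (wildtype) and 6 were KIS -/- (KIS-ko), and each of the 6 litters gave 1 brain of either genotype. The methods describe a line backcrossed to C57BL6/N. Which part of Uhmk1 the allele removes is not given in the sources used here. No treatment was applied, and all RNA was total RNA from powdered frozen tissue. Since a whole brain is a mixture, fewer cells of a type and less RNA per cell cannot be told apart.

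A probeset is a group of at most 4 short probes in 1 exon or part of an exon, and its value here is the PLIER signal, an intensity on the linear scale. Array medians lay between 460 and 526, and the KIS-ko array had the lower median in 5 of 6 litters. Pairs of arrays correlated with r between 0.978 and 0.992 over log2 values. The neuronal markers Tubb3, Dcx, Snap25 and Stmn2 had median probeset signals of 8660 to 11740. The markers of other organs Alb, Myh6 and Ins2 had median signals of 112 to 151, against a median of 114 over 5222 intron controls. Of 29 marker genes of brain cell types, blood and other organs, 0 passed the adjusted test between genotypes, and 1, the dim Ins2, had an unadjusted p under 0.05. Over all genes, 0.00579% passed and 6.16% had such an unadjusted p.

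The table places the 9 probesets of Uhmk1 on the minus strand at chr1:172130014-172145483, with a build that it does not name. They are numbered here from the 5′ end of the transcript. A probeset was called dim when its mean signal was under 713, the 95th percentile of the intron controls. All 9 exceeded this limit in the wildtype mean, and 8 lay below it in the KIS-ko mean. Each of these 8 was above the limit in 6 of 6 wildtype brains and below it in 6 of 6 KIS-ko brains.

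Probeset 1, at chr1:172145387-172145483, had signals of 4859, 4726, 4686, 4191, 5019 and 4378 in the wildtype brains of litters 1 to 6. In the KIS-ko brains of the same litters it had 4003, 3939, 4315, 4045, 4938 and 4587. The genotypes overlapped. The KIS-ko brain had the lower signal in 5 of 6 litters, and the difference on the log2(signal + 16) scale was -0.11 (SE 0.071, 95% interval -0.27 to 0.049, limma adjusted p = 0.775). This is the one Uhmk1 probeset whose cross-hybridization type in the table is not 1. The table does not explain its types, and type 1 is read here, and for all members, as matching 1 place and the others as matching more than 1. Whether signal from elsewhere has a part in its level was not tested.

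Probeset 2 lies 213 bases downstream, at chr1:172145133-172145173. Its wildtype signals were 1206, 1154, 986, 1009, 883 and 1366 in litters 1 to 6. The KIS-ko signals were 53.7, 0.030, 21.6, 0.027, 47.3 and 0.042. Each KIS-ko value was far under the lowest wildtype value, and 3 of 6 were below 1. The mean KIS-ko signal of 20.5 ± 24.8 (SD, n = 6) was 1.86% of the wildtype mean of 1101 ± 175, and stood at the 8.77th percentile of the intron controls. The study's filter drops a probeset when the SD of a genotype exceeds 0.4 of its mean. Probeset 2 was left out of the tests by that filter, since the SD of its KIS-ko values was 1.21 times their mean. Without the filter its difference had an adjusted p of 0.0108 from limma.

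From probeset 3 to probeset 9 the signal was lower in all 6 KIS-ko brains, with no overlap between genotypes, as was the case for 0.122% of all probesets. Probeset 3, in the next part of the gene, ran from 1063 to 1306 in wildtype (median 1169) and from 125 to 219 in KIS-ko (median 205). Probeset 5 ran from 1149 to 1490 (median 1224) in wildtype and from 192 to 250 (median 220.0) in KIS-ko. The gap between the ranges was wider than either range.

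Toward the 3′ end, probeset 7 ran from 2013 to 2395 in wildtype (median 2163) and from 485 to 677 in KIS-ko (median 573). Probeset 8, which holds a single probe, ran from 1925 to 2353 (median 2012) against 213 to 426 (median 288). Probeset 9, at chr1:172130014-172130133, ran from 2792 to 3203 (median 3133) against 441 to 643 (median 617). Here too every KIS-ko brain lay below every wildtype brain.

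The mean KIS-ko signal of probesets 3 to 9 was 14.3% to 26.1% of that in wildtype, and the differences were -2.78 to -1.92 on the log2 scale. All 7 passed the probeset test, with adjusted p of at most 4.6e-04 (limma). Across all 205469 probesets tested, 10 passed it, a share of 0.00487% (0.00438% lower in KIS-ko), and 7 of these 10 were from Uhmk1. The KIS-ko means of 191 to 572 fall between the 69.2 and the 93.4 percentile of the intron controls. A remaining transcript and background thus cannot be told apart by these values, and only a bound can be given for each fall. Set against the limit of 713, the wildtype level was at least 1.52-fold higher for probeset 2, 1.64-fold for probeset 3, 2.50-fold for probeset 6 and 4.22-fold for probeset 9.

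**Figure D1:**
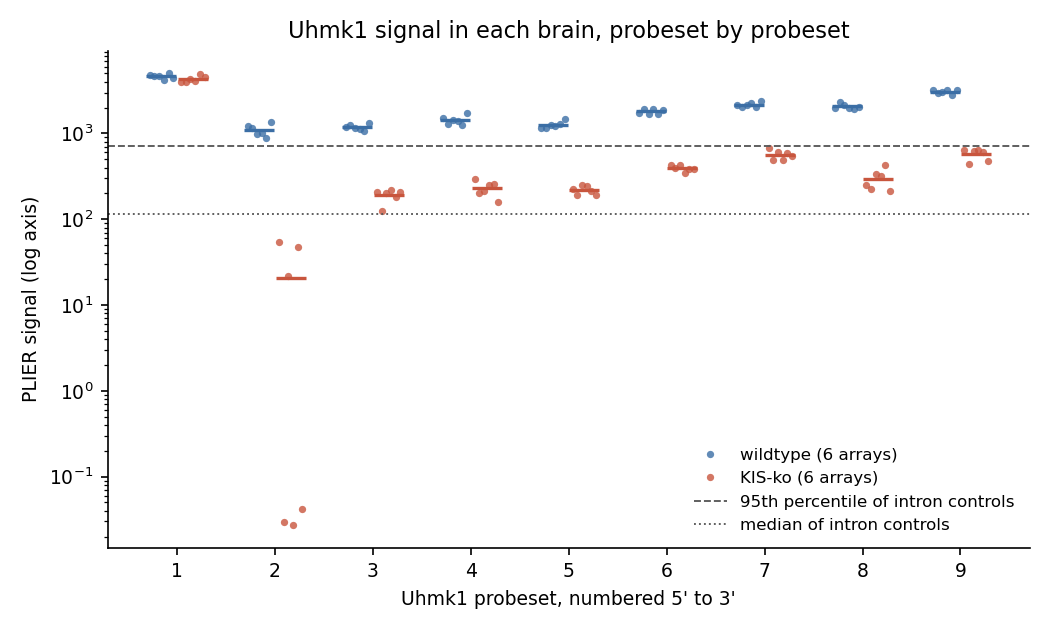
PLIER signal on a log axis of the 9 Uhmk1 probesets in 6 wildtype and 6 KIS-ko brains, in order from 5′ to 3′, with points for arrays, short bars for means and lines at the 95th percentile (713) and the median (114) of the intron controls. Probeset 1 overlaps between the genotypes, probeset 2 is near 0 in 3 KIS-ko brains, and probesets 3 to 9 are at 191 to 572 in the KIS-ko means.

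The gene value, the mean of log2(signal + 16) over the kept probesets, was 10.97 ± 0.057 (SD, n = 6) in wildtype and 8.85 ± 0.15 in KIS-ko. The difference for Uhmk1 was -2.11 (SE 0.068, 95% interval -2.26 to -1.96, limma adjusted p = 2.9e-07) and lay between -2.35 and -1.91 in the 6 litters. It was the only gene of 17279 to pass the adjusted test, a share of 0.00579%. This value includes probeset 1 and leaves out probeset 2. It is a difference of measured signals, of which 7 of the 8 lie below the limit in KIS-ko, and with those set to the limit the wildtype level was at least 2.20-fold higher. Over probesets 3 to 9 alone the mean difference was -2.40 ± 0.22 (SD over 6 litters), and over all 9 it was -2.46 ± 0.28, with bounds of at least 2.44-fold and 2.11-fold. The weighted mean of pair ratios that the methods describe gave a KIS-ko over wildtype ratio of 0.352 ± 0.024 (SD, n = 6 pairs). It joins probeset 1, whose ratio of mean signals was 0.927, to probesets 3 to 9, with ratios of 0.143 to 0.261. The latter rest on the same dim KIS-ko signals. With probesets matching 1 place, where probeset 1 is left out, the weighted ratio was 0.196.

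The uneven profile of Uhmk1 also stood out in the exon usage test, in which each probeset is compared with the mean of the other kept probesets of its gene, as a splicing index is. Probeset 1 was 2.29 higher in KIS-ko relative to the others (SE 0.098, limma adjusted p = 7.3e-04). The others are all below the intron control limit in KIS-ko, and against that limit the shift is at least 1.17 on the log2 scale. Probeset 1 was 1 of 2 probesets called of 202944, a share of 0.000985%. Its type is read as matching more than 1 place. With probesets matching 1 place only, where it is left out, 0 probesets were called. None of the other 7 kept Uhmk1 probesets passed, although 6 of them had an unadjusted p under 0.05, as had 6.09% of all probesets in this test. Their differences from the rest of the gene lay between -0.76 for probeset 8 and 0.23 for probeset 7, and they are set in part by probeset 1 itself, which enters the mean of the others.

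Sf1, the splicing substrate of KIS, was measured by 24 probesets at chr19:6364026-6377105 on the plus strand, and all 24 were kept and above the intron control limit. Its gene values were 11.60, 11.61, 11.50, 11.45, 11.68 and 11.50 in the wildtype brains of litters 1 to 6. In the KIS-ko brains they were 11.56, 11.46, 11.56, 11.58, 11.64 and 11.53. The genotypes overlapped, and the KIS-ko brain was the lower of the pair in 3 litters and the higher in 3. The difference was 0.00018 (SE 0.051, limma adjusted p = 1.00), with a 95% interval from -0.11 to 0.11, which in percent is a change between -7.50% and 8.14%.

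SF1 is made in several forms by alternative splicing, so its probesets were also read singly. On the log2 scale, 14 were lower and 10 higher in KIS-ko, 0 had an unadjusted p under 0.05 in either of these tests, and the lowest adjusted p was 0.766 for levels and 0.829 for exon usage. The probeset of largest difference was 15, at chr19:6374856-6374895. It ran from 954 to 1298 in wildtype (median 1096) and from 1088 to 1314 in KIS-ko (median 1235), a difference of 0.15 (SE 0.084) with overlapping genotypes. Its neighbour 16, at chr19:6375892-6375956, differed by -0.14 (SE 0.10). Relative to the rest of the gene, probeset 15 was at 0.15 and probeset 16 at -0.15, with unadjusted p of 0.0698 and 0.104 (limma). The diffSplice test of limma, which shares 1 variance over the probesets of a gene, gave these 2 probesets unadjusted p of 0.0424 and 0.0428 and adjusted p of 0.938 and 0.943.

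Rbm39 encodes a splicing factor related to the large U2AF subunit. It showed the largest difference among the partners, and it did not pass the test. Its gene values ran from 11.48 to 11.81 in wildtype (median 11.58) and from 11.40 to 11.61 in KIS-ko (median 11.51), so the genotypes overlapped, as in all 5 partners (0.208% of all genes had no overlap). The differences in litters 1 to 6 were -0.10, -0.12, -0.090, 0.13, -0.27 and -0.14. The KIS-ko brain was lower in 5 of 6 litters. The mean was -0.098 (SE 0.056, 95% interval -0.22 to 0.026, unadjusted p = 0.109 and adjusted p = 0.685 from limma), and 6.16% of all genes had an unadjusted p under 0.05. These values depended on single litters. Without litter 5 the mean for Rbm39 was -0.064 (unadjusted p = 0.312). Without litter 4 it was -0.14 (unadjusted p = 0.0136, adjusted p = 0.148, limma) and 23.3% of all genes had such a p, while without litter 6 the share was 3.35%.

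Along Rbm39, at chr2:155973210-156005890 on the minus strand, 19 of 20 probesets had a lower mean of log2 values in KIS-ko. The differences of the 20 lay between -0.34 and 0.019. How many of all probesets had a lower mean was not counted. Of the 20 Rbm39 probesets, 13 have a type read as matching more than 1 place. Probeset 3 ran from 1023 to 1261 in wildtype (median 1138) and from 955 to 1100 in KIS-ko (median 1008), a difference of -0.17 (unadjusted p = 0.0274). Probeset 18 ran from 1716 to 2050 (median 1916) against 1373 to 1965 (median 1773), also -0.17 (unadjusted p = 0.0285), and was lower in 6 of 6 litters, as were 2.12% of all probesets.

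Probeset 19 of Rbm39 was dim, with a mean signal of 207 in wildtype and 164 in KIS-ko, and differed by -0.34 (SE 0.15, unadjusted p = 0.0446). These 3 were the only kept probesets of the 5 partners with an unadjusted p under 0.05. They make 3.80% of the 79, where 4.72% of all probesets were below that threshold and lower in KIS-ko. None passed after adjustment (lowest adjusted p 0.751, limma). The count depended on the setting. Without litter 4 it was 11 of 79, beside 16.3% of all probesets in either direction, and without litter 1, 2 or 6 it was 0. With trend and robust moderation it was 8 of 79 (6.98% of all), and without dim probesets 5 of 72 (5.74% of all). In the exon usage test no Rbm39 probeset had an unadjusted p under 0.05, while by diffSplice probeset 19 had an unadjusted p of 0.0035 and an adjusted p of 0.372.

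Rbm17 encodes a splicing factor that can bind SF1 through its U2AF homology motif. Its 12 probesets lie at chr2:11507262-11524738 on the minus strand, and 10 have a type read as matching more than 1 place. Gene values ran from 9.89 to 10.01 in wildtype (median 9.97) and from 9.84 to 10.08 in KIS-ko (median 9.94), with overlap and with 3 litters in each direction. The difference was -0.015 (SE 0.049, 95% interval -0.12 to 0.093, limma adjusted p = 0.911). Over the 2 probesets read as matching 1 place it was 0.048, of which the dim probeset 3 differed by 0.11 and the brighter probeset 5 by -0.014.

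Single Rbm17 probesets differed by -0.20 to 0.15, with 5 lower, 7 higher and 0 called. Probeset 11 was the largest, from 508 to 621 in wildtype (median 575) and from 385 to 693 in KIS-ko (median 502). It was dim in both genotypes and had the only unadjusted p under 0.05 of the partners in the exon usage test. The difference from the rest of the gene was -0.20 (SE 0.084, unadjusted p = 0.0471, adjusted p = 0.816, limma). That is 1.27% of the 79 partner probesets, where 6.09% of all probesets had such a p. The count was 7 of 79 without litter 4 (12.3% of all), 5 of 72 without dim probesets (4.93% of all) and 4 of 79 without the litter block (5.61% of all). It was 0 with a pseudocount of 1, without the filter, quantile-normalized again and with probesets matching 1 place. Without litter 1, 2 or 6 it was 0 as well. By diffSplice 4 of the 79 had an unadjusted p under 0.05, beside 5.10% of all probesets, and 0 were called. Those 4 were the Sf1, Rbm39 and Kif3a probesets named with it, and not probeset 11. Probeset 2 of Rbm17 was higher in KIS-ko in 6 of 6 litters, by 0.060, and 0.905% of all probesets were higher in each litter.

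Cdkn1b, the gene of the cell cycle inhibitor p27, was covered by 4 probesets at chr6:134870672-134873582 on the plus strand, each matching 1 place. Its gene values ran from 10.53 to 10.79 in wildtype (median 10.65) and from 10.46 to 10.91 in KIS-ko (median 10.53). The KIS-ko brain was lower in 5 of 6 litters, and the exception, litter 4, differed by 0.19. The difference was -0.034 (SE 0.055, 95% interval -0.16 to 0.088, limma adjusted p = 0.818). Its 4 probesets differed by -0.13 to 0.019. The lowest was probeset 4, the longest of the gene at 1132 bases and its 3′-most, with 712 ± 94.0 in wildtype and 655 ± 128 in KIS-ko (SD, n = 6). It is dim, and without it the difference of the gene was -0.0033.

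Kif3a, for the kinesin-2 motor subunit, had 20 probesets at chr11:53384054-53415023 on the plus strand. One, probeset 19, was rejected by the filter, with a mean signal of 88.1 in wildtype and 66.6 in KIS-ko. Gene values ran from 10.92 to 11.04 in wildtype (median 11.01) and from 10.75 to 11.06 in KIS-ko (median 10.95). The genotypes overlapped, and the KIS-ko brain was lower in 4 of 6 litters. The difference was -0.053 (SE 0.051, 95% interval -0.17 to 0.059, limma adjusted p = 0.725).

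Of the 19 kept Kif3a probesets, 15 had a lower and 4 a higher mean in KIS-ko. The largest was probeset 15, at chr11:53411463-53411494, from 1344 to 1776 in wildtype (median 1476) and from 1125 to 1681 in KIS-ko (median 1206). Its difference was -0.23 (SE 0.11, unadjusted p = 0.0649, limma). No probeset of Kif3a had an unadjusted p under 0.05 in either test, while diffSplice gave probeset 15 an unadjusted p of 0.0140 and an adjusted p of 0.659.

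**Figure D2:**
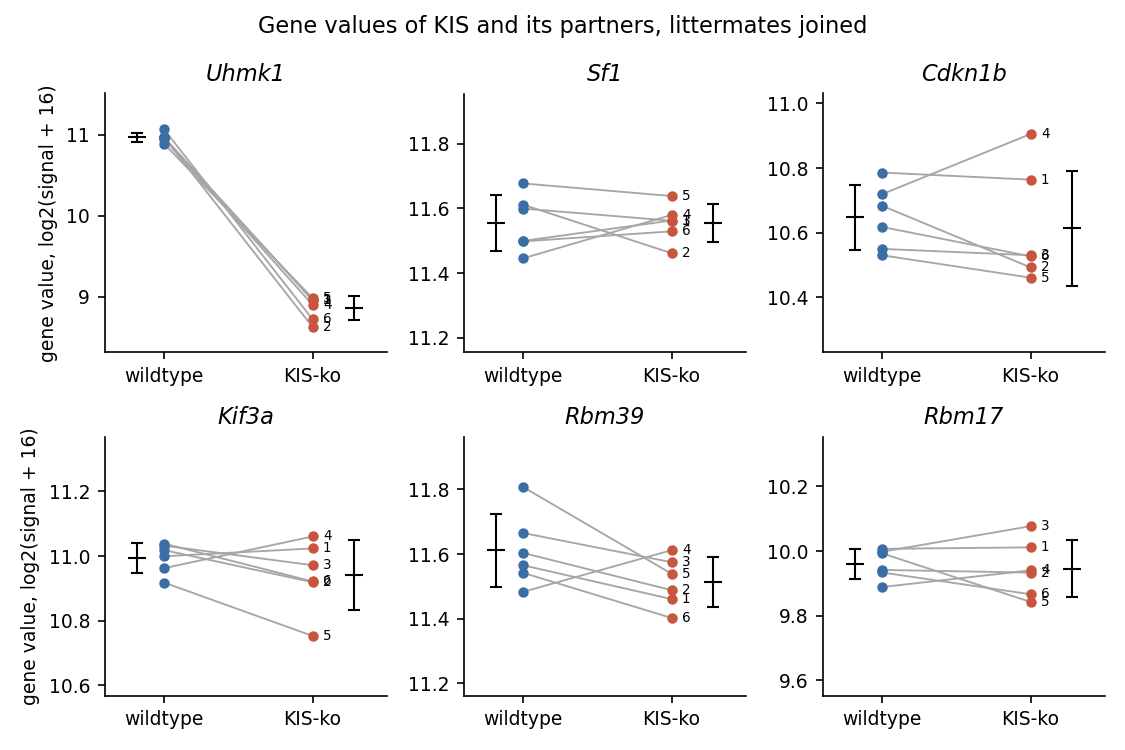
Gene values, the mean of log2(signal + 16) over kept probesets, of the 6 member genes, with points for brains, lines joining littermates, digits for litters and bars for the mean ± SD of 6 brains; the Uhmk1 panel spans a wider range than the others. Every line of Uhmk1 runs from about 11 to about 9, while the genotypes overlap in each partner gene.

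Set side by side, the 95% intervals of the 5 partner genes lay between -0.22 and 0.11 on the log2 scale. In percent these intervals run from -14.3% to 8.14%. They are no limit of detection. Adjusted p-values were between 0.685 and 1.00 (limma). By the weighted mean of pair ratios, the KIS-ko over wildtype ratio was 1.00 ± 0.049 for Sf1, 0.947 ± 0.071 for Rbm39, 1.02 ± 0.032 for Rbm17, 0.995 ± 0.068 for Cdkn1b and 0.980 ± 0.056 for Kif3a (SD, n = 6 pairs). Of 79 kept partner probesets, 55 were lower, 24 higher and 0 called, and the median half-width of their 95% intervals was 0.16. The share of all probesets with a lower mean was not counted, here or for the single partners. The KIS-ko array had the lower median in 5 of 6 litters.

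The partners were measured on the same arrays, and in 3 of 6 litters all 5 differed with the same sign. In litter 4 all 5 were higher in the KIS-ko brain, by 0.052 to 0.19, and in litters 2 and 5 all 5 were lower, by -0.19 to -0.0083 and by -0.27 to -0.039. Litters 1, 3 and 6 held both signs. The median gene of the arrays differed by -0.046, -0.086, 0.0023, 0.071, -0.052 and -0.11 in litters 1 to 6. Its part in the differences of the partners was not tested. After subtraction of the median gene in each litter, the mean difference was 0.037 ± 0.069 for Sf1, -0.061 ± 0.091 for Rbm39, 0.022 ± 0.069 for Rbm17, 0.0028 ± 0.072 for Cdkn1b and -0.016 ± 0.065 for Kif3a (SD over 6 litters). Sf1 was then higher in 5 of 6 litters and Rbm39 lower in 5 of 6.

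**Figure D3:**
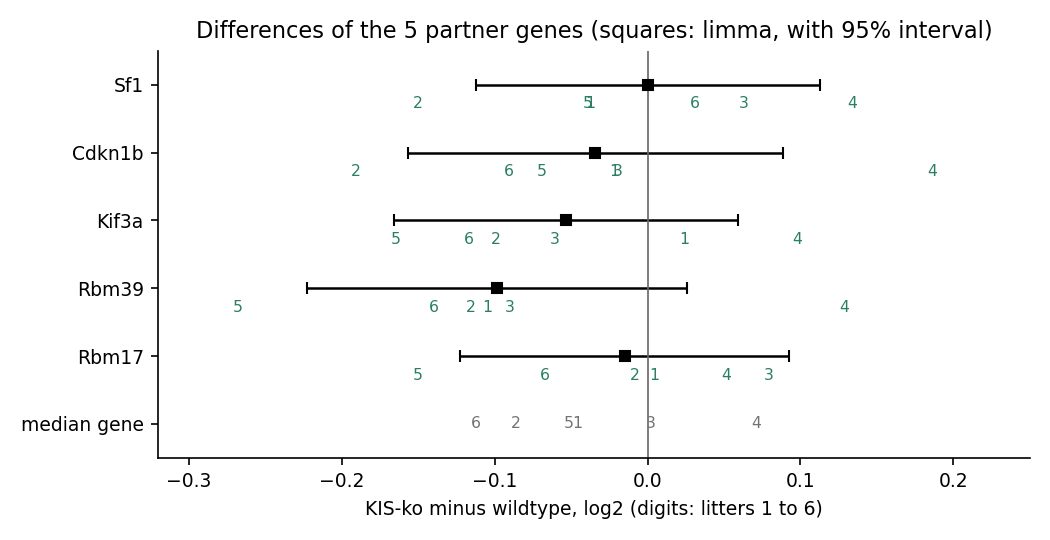
Difference KIS-ko minus wildtype on the log2 scale of the 5 partner genes, with squares for the limma estimate, bars for its 95% interval and digits for the difference within each litter; the lowest row gives the median of all genes in each litter. All 5 intervals include 0, and litter 4 lies above 0 in every row.

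**Figure D4:**
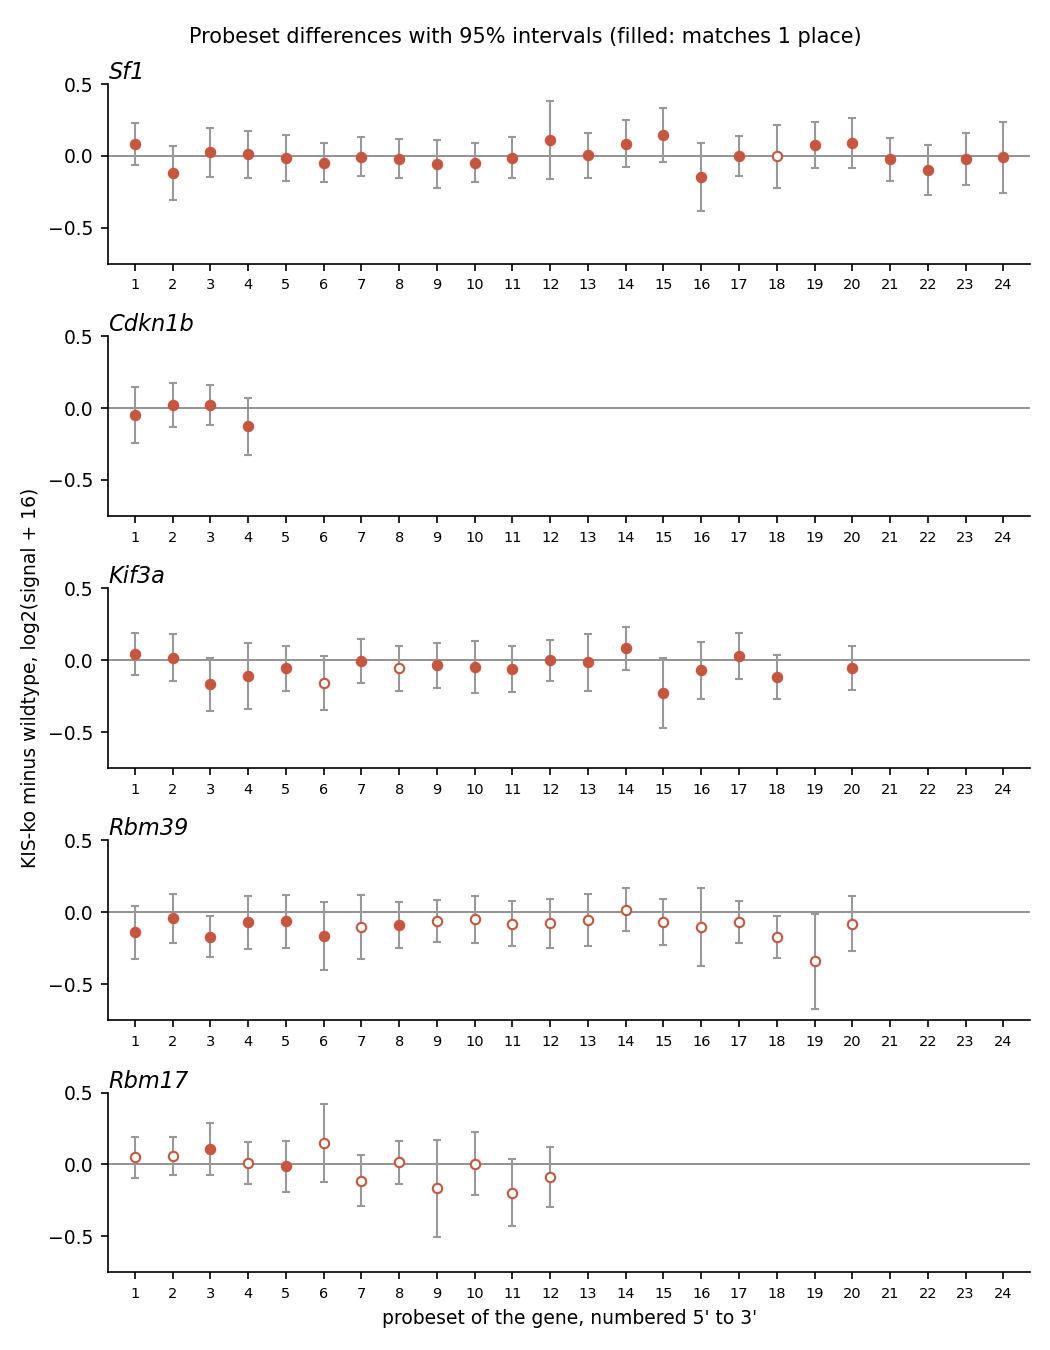
Difference KIS-ko minus wildtype in log2(signal + 16) of each kept probeset of the 5 partners, numbered 5′ to 3′, with 95% intervals from limma; filled points have the type read as matching 1 place and open points another. Intervals of 3 Rbm39 probesets (3, 18 and 19) exclude 0 without adjustment, and 19 of 20 Rbm39 points lie below 0.

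Other genes of the same pathways were read from 5 lists of 58 genes, of which 57 were measured. In the adjusted gene test 0 of them were called, and 2 had an unadjusted p under 0.05, both lower, where 4.34% of all genes did. The table places U2af2, Sf3b4 and some probesets of Ccnd3 on other chromosomes than RefSeq does, so these symbols are not read as measures of the genes. Of the other 54, 47 had a lower mean in KIS-ko and 7 a higher one, beside a median of -0.036 over all genes. That median is below 0, so most genes had a lower mean too. Their exact share was not counted, so the counts of lower genes here are no result about the lists. On centred arrays the median over all genes was 0.018.

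Among the factors that recognise the branch point and the 3′ splice site next to SF1, the other 21 gave a median of -0.045, with 19 lower and 2 higher. Sugp1, a G-patch protein listed as Sf4, differed by -0.096 (-0.040 without dim probesets) and Sf3b5, a small subunit of the SF3b complex, by 0.075. Among other kinases of splicing factors, 11 of 12 were lower with a median of -0.056. The largest was Clk1, a kinase of SR proteins, at -0.21 (SE 0.082, unadjusted p = 0.0255, adjusted p = 0.685, limma), followed by Prkg1 at -0.13 and Cdk12 at -0.11. Only 1 of 18 kept Prkg1 probesets was above the intron control limit, and without the dim ones its difference was -0.053. Cdk13 was not matched.

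For the cyclins, kinases and ubiquitin ligase parts around p27, the 15 genes with matching chromosomes gave a median of -0.021, with 12 lower and 3 higher. Ccne2, a cyclin whose kinase p27 inhibits, differed by -0.22 (unadjusted p = 0.0330, adjusted p = 0.685, limma), and 0 of its 9 kept probesets were above the intron control limit. Skp2, which marks p27 for degradation, differed by -0.099, and Skp1a, of the same ligase, by -0.11. Of the kinesin-2 genes beside Kif3a, the motor partner Kif3b differed by -0.072, the motors Kif3c and Kif17 by -0.0043 and 0.057, and the cargo adaptor Kifap3 by -0.051. Of other reported KIS substrates, Stmn1 (stathmin) differed by -0.040 and Pam, an enzyme of peptide amidation, by -0.11. None of the differences of named list genes was past the adjusted threshold in any setting tried, and their sizes depended on the setting.

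Over all settings and with each litter left out, Sugp1 lay between -0.15 and -0.040 and Sf3b5 between 0.045 and 0.13. Of the kinases, Clk1 lay between -0.30 and -0.15, Prkg1 between -0.17 and -0.053 and Cdk12 between -0.18 and -0.053. Around p27, Ccne2 lay between -0.31 and -0.14, Skp2 between -0.15 and -0.044 and Skp1a between -0.18 and -0.055. These 8 kept their sign. Kif3b, between -0.14 and -0.016, and Pam, between -0.15 and -0.042, did so too. Kif3c (-0.026 to 0.053), Kifap3 (-0.095 to 0.0059), Kif17 (-0.012 to 0.11) and Stmn1 (-0.060 to 0.018) were found on both sides of 0.

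Over the 12 arrays, after each was centred on its median gene, the genes with the pattern most like that of Uhmk1 among 7247 genes above the intron control limit were Rgs4 (r = 0.897), Dcaf8 (r = 0.870) and Gas5 (r = 0.867). All 3 are on chromosome 1, at 0.452, 1.93 and 9.16 megabases from Uhmk1. The points share the genotype split, which sets most of the pattern of Uhmk1. In the gene test these genes differed by -0.38, -0.26 and -0.63, with adjusted p of 0.326, 0.326 and 0.185 (limma). The pattern of Sf1 was most like those of Tmem39b (r = 0.972), Sik3 (r = 0.956) and Got2 (r = 0.954), on chromosomes 4, 9 and 8. These are descriptions over arrays that share their normalization.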

How the data were processed

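Total RNA of 12 newborn brains, 6 wildtype and 6 KIS-ko from 6 litters, was hybridized to exon arrays. The authors processed the arrays with the Affymetrix Expression Console, by quantile normalization at the exon level, and estimated probeset signals with PLIER. The intensity they deposited is this signal on the linear scale. The number of arrays limits the precision. Groups come from the genotype labels, and litters are the replicate numbers of the samples.

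Main probesets with a symbol and a relative standard deviation of at most 0.4 in each genotype were kept (205469 probesets, 17279 genes), which rejected 7.20%, and 87 of the 89 member probesets were among those kept. Values were log2(signal + 16). Genes (means over kept probesets), probesets and exon usage (genes with at least 3 kept probesets) were compared between genotypes by limma 3.58.1 (R 4.3.3) with a term for each litter. P-values were adjusted over all features by Benjamini-Hochberg, at a threshold of 0.05. Brains were paired by replicate number, read here as the 6 littermate pairs that the methods describe. Deviations of littermates from their genotype means correlated with r of 0.15, 0.017, 0.15, -0.093, 0.33 and -0.064 in litters 1 to 6. The methods' fold change is the mean of 6 pair ratios, weighted over probesets by the inverse relative standard deviation. Other steps used Python 3.11.15, pandas 2.3.3, numpy 2.4.6 and matplotlib 3.10.9. The fits were run on simulated arrays with independent noise and planted differences larger than those of the partners. Smaller differences and shifts shared by an array or litter were not simulated.

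The text names every member gene, all Uhmk1 probesets, partner probesets with an unadjusted p under 0.05 or the largest difference, the 3 genes of lowest p of each list, and the 3 genes most like Uhmk1 and Sf1. Rbm17 probeset 2, Sf1 probeset 16 and Kif3a probeset 19 were added after their values were seen. Members and lists were chosen with earlier results of these data known. RefSeq genes of GRCm38.p6 served to check the chromosomes of 92 symbols, of which 89 were the same. The alternatives are given with their effects at the end.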

Additional observations from a re-analysis of the deposited data

How the results depend on the processing

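The alternatives were no litter block, pseudocounts of 1 and 64, the filter on the relative standard deviation at 0.2 or dropped, no dim probesets, a second quantile normalization, centring of each array, probesets matching 1 place only, moderation with trend and robust, gene medians, diffSplice, an unweighted ratio of group means, and each litter left out. Of 741 alternative values over 47 results, 712 were labelled the same as the main value. For a difference this meant the same sign and side of the threshold, and for a count a change within a set factor. For a pair ratio it meant a move smaller than the SD over pairs. Uhmk1 passed the gene test in 17 of 17, from -2.46 to -1.93, with 5 to 8 probesets called, and 0 partner genes or probesets passed in any. Its exon usage count of 1 became 2 with the filter at 0.2, 3 without dim probesets or by diffSplice, which called 390 probesets in all, and 0 with probesets matching 1 place, where probeset 1 is left out. Without dim probesets, those numbered 4 to 9 stay in only through their wildtype level. Its pair ratio of 0.352 became 0.386 with the filter at 0.2, 0.327 on centred arrays, 0.196 with probesets matching 1 place and 0.279 from group means.

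The direction of 4 partner differences depended on the setting. Sf1 was at -0.00027 with a pseudocount of 64. Cdkn1b was at 0.023 and Kif3a at 0.0038 on centred arrays, Cdkn1b at 0.0016 when quantile-normalized again. Rbm17 was at 0.0035 with the filter at 0.2, 0.0050 without dim probesets, 0.041 centred, 0.027 quantile-normalized and 0.048 with probesets matching 1 place. Centring also turned Stmn1 (0.018), Kifap3 (0.0059) and Kif3c (0.053, and 0.023 quantile-normalized), and moved the median of all genes from -0.036 to 0.018. The median over probesets turned Kif17 (-0.012). Rbm39 was negative in 17 of 17, from -0.14 to -0.041. The cause of these shifts was not tested.

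With each litter left out in turn, the gene differences ranged from -2.15 to -2.07 for Uhmk1, -0.027 to 0.030 for Sf1, -0.14 to -0.064 for Rbm39, -0.034 to 0.012 for Rbm17, -0.078 to -0.0031 for Cdkn1b and -0.084 to -0.031 for Kif3a. Sf1 was at -0.012, -0.027 and -0.0060 without litters 3, 4 and 6, Rbm17 at 0.012 without litter 5, and Kif3c, between -0.026 and 0.020, at 0.020 and 0.012 without litters 2 and 6. The pair ratio of Uhmk1 ranged from 0.338 to 0.377. Without the litter block the gene differences were the same, -2.11 for Uhmk1 and -0.098 for Rbm39, and no call of a member changed, while probesets called over the whole table went from 10 to 26 and exon usage calls from 2 to 18. Over all settings the whole-table calls ranged from 1 to 5 genes (5 with the filter at 0.2 or without dim probesets), from 9 to 91 probesets (91 with trend and robust) and, by the same usage test, from 0 to 18 probesets.

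Array intensities carry no read depth, and signals under 713 cannot be told from background. Probesets matching more than 1 place can hold signal of other genes.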
